A study of Mus musculus with 29 samples.

Results

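The left ventricle (LV) of wild-type (WT) mice was compared between 21 months and 10 weeks of age. All 5 LV samples labelled as old WT (Old WT) and all 5 labelled as young WT (Young WT) entered the comparison, 10 of the 29 samples of the series. Both groups were female C57BL/6N mice that carried no engineered allele and received no treatment, and their hearts were perfused with buffered saline before the LV was frozen. The other 19 samples were 4 WT mice of 12 months (middle age, MA) and 15 Rage-/- mice of the same 3 ages, which lack the receptor for advanced glycation end-products. Each mouse gave 1 array of Illumina MouseWG-6 BeadChips, slides on which the brightness of beads carrying a probe reports the amount of its transcript. The question was which transcripts differ between the aged and the young WT heart.

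The aging heart is known for thicker muscle fibres, stiffer walls, interstitial collagen and slower relaxation, and its electrical currents and its use of fuels also shift with age. Interferons are signal proteins of the immune system. They act through receptors that activate factors such as STAT2 and IRF9, which bind interferon response elements and switch on a common set of genes, among them antiviral sensors, GTPases that attack intracellular microbes, and the machinery that displays peptides to T cells on class I molecules. Part of this set runs at a low level in healthy tissue.

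The deposited bead intensities were background-corrected and quantile-normalized, and all levels below are the resulting log2 intensities. A difference is Old WT minus Young WT in log2 units from a linear model of limma. The model was fitted to all 29 arrays with the 6 groups and 5 surrogate variables. These variables are patterns of variation shared among arrays, drawn mainly from probes with little difference between groups. They were not made independent of the groups, so they can take up part of an age difference. A probe was called when its Benjamini-Hochberg adjusted p over all 13277 tested probes was under 0.05, every p is two-sided, and errors of differences are standard errors (SE). Called were 114 probes, or 0.859% of those tested, 46 higher and 68 lower in Old WT. Of 8189 genes, each read by its brightest probe, 31 were called higher (0.379%) and 51 lower (0.623%). Probes differ in how well they bind, so no level is set against that of another gene. The 12 largest rises and 12 largest falls named below were taken from called genes whose mice do not overlap. Lack of overlap is therefore no result for them.

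The arrays lay on 6 BeadChips, and none held both Old WT and Young WT. Old WT 4, 5 and 6 lay on BeadChip 5 beside 2 Old Rage-/- arrays, Old WT 3 was alone on BeadChip 6, and Old WT 2 lay on BeadChip 4, whereas Young WT 1 to 4 lay on BeadChip 3 and Young WT 5 on BeadChip 1. The intensity at the 95th percentile stood 14.4 to 15.9 times over background on the 4 Old WT arrays of BeadChips 5 and 6, 5.75 times on that of Old WT 2 and 4.34 to 7.74 times on the Young WT arrays, and 10903 to 15087 probes were detected on Old WT arrays and 10302 to 13676 on Young WT arrays. Age in WT can therefore not be told apart from BeadChip within a slide. Values from a fit with BeadChip as a fixed block, which links both ages through the Rage-/- arrays on shared slides, and the level of Old WT 2 are given beside the main results for that reason. Old WT 3, alone on its slide, carries no weight in the difference of that fit. Neither does Old WT 2, whose slide otherwise held only MA Rage-/- arrays, a group on no other slide. Of the Old WT mice the block difference rests on 4, 5 and 6, linked by the 2 Old Rage-/- arrays beside them. Of the 82 called genes, 81 had the same sign with the block and 15 were also called, where 0.22% of all genes were, and 77 had Old WT 2 outside the Young WT range on the called side. Over all 8189 genes Old WT 2 lay above that range in 1601 and below it in 1799. Old WT 2 is also among the arrays that made the calls, so the count of 77 is no independent check. Without the arrays of BeadChips 5 and 6, which leaves Old WT 2 as the single Old WT array, 7 of the 82 were called and all 82 kept their sign. With BeadChip as a random block, a fit that also uses differences between slides, 149 probes and 51 of the 82 genes were called. With only the 10 WT arrays in such a fit, 28 of the 82 were called. Below, the BeadChip block is the fixed one unless the random one is named. The fits with a block, and that without BeadChips 5 and 6, held no surrogate variables. They thus differ from the main fit in that too, and the share of each change in a lost call was not tested. The surrogate variables set the counts too. Without them and without a block the model called 3169 probes (1493 higher and 1676 lower), and all 82 genes kept their sign there.

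A group of interferon-inducible genes fell in the old WT heart. Of the 36 measured genes of a list of 56 interferon-stimulated genes, 17 were called lower and none higher, all 36 differences were negative, and the list median was −1.34, against −0.02 over all genes. The mean level of the 36 genes was 7.27, 7.24, 7.06, 7.11 and 6.98 in Old WT 2, 3, 4, 5 and 6, against 8.40, 8.79, 8.56, 7.90 and 8.87 in Young WT 1 to 5. Every Old WT mouse thus lay below every Young WT mouse, and Young WT 4 was the lowest of the young. In 27 of the 36 genes the mice of both ages did not overlap, with Old WT lower, as in 7.46% of all genes (6.2% of genes had Old WT higher without overlap). Old WT 2 lay below the Young WT range in 30 of the 36, as in 1799 of all 8189 genes. With BeadChip as a fixed block 6 of the genes were called, all lower, at a list median of −2.02. In bulk tissue fewer cells of a type and less RNA per cell cannot be told apart.

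Promoters of 4 of the called genes are shown because they hold the core of the interferon-stimulated response element, a site bound by STAT2 and IRF9. They are the RefSeq promoters of mouse build GRCm38.p6, from 250 bases before to 50 bases after a gene's start, read 5′ to 3′ on the gene's strand, with matches to its core, GAAA, any 2 bases and GAAA again, on either strand in capitals. Igtp and Irgm2 lie at chr11:58199306-58199605 and chr11:58214727-58215026, Ifit3 at chr19:34583279-34583578 and Stat2 at chr10:128270248-128270547, all on the plus strand.
Igtp: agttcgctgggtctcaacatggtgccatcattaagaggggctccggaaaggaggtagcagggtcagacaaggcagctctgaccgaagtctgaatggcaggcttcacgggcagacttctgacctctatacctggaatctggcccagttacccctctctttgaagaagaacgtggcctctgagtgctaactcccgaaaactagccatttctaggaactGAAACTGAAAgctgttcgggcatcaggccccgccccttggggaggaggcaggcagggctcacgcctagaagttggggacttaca
Irgm2: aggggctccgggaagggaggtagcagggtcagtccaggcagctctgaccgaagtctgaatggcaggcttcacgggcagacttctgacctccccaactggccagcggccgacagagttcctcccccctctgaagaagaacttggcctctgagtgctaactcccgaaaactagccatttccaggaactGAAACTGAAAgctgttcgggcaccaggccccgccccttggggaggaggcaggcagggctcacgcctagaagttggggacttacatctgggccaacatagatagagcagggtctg
Ifit3: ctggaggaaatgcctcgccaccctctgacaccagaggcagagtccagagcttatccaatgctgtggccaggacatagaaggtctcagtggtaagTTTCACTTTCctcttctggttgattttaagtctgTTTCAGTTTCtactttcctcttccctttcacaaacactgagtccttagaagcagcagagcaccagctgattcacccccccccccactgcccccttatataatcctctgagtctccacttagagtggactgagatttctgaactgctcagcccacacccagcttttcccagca
Stat2: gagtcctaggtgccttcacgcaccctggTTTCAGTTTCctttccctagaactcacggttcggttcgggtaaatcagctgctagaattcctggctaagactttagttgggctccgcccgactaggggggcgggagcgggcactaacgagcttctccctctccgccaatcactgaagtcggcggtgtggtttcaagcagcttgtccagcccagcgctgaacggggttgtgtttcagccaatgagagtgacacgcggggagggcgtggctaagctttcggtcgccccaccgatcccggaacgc
Igtp and Irgm2, neighbours in the same gene family, had 1 match each, and their promoters share an identical run of 61 bases that does not hold it. Ifit3 had 2 matches and Stat2 had 1. The motif was found in the promoters of 14 of the 29 interferon-list genes with a RefSeq promoter (48.3%), against 247 of 6678 tested genes (3.7%) and 1079 of the 27025 genes of the whole table (3.99%). The gamma-activated site TTCNNNGAA, also searched on both strands, was found for 9 of the 29 genes (31%), against 543 of the 6678 tested genes (8.13%). Of the 12 genes called lower in the list that have a promoter, 6 held the response element core and 4 the gamma-activated site. The motifs may overlap each other, and a match is a run of letters and no proof of binding. Irf7, Irf9, Dtx3l, Lgals3bp and Trim25 of the list, and Cd274 and Uba7 outside it, held neither in these windows.

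Igtp and Irgm2 encode interferon-inducible GTPases that act on vacuoles holding microbes. Igtp was at 7.39, 7.72, 7.62, 7.12 and 7.45 in Old WT 2 to 6 and at 10.92, 11.03, 10.33, 9.96 and 11.42 in Young WT 1 to 5. The groups lay far apart, and the difference was −3.44 ± 0.38 (10.8-fold lower, limma adjusted p = 1.87e-05). Irgm2 was at 8.63, 8.60, 8.72, 8.63 and 8.32 in Old WT and at 11.38, 11.44, 10.77, 10.61 and 12.24 in Young WT, again without overlap, and fell by 2.81 ± 0.32 (7.03-fold, limma adjusted p = 2.51e-05). In the fit with the BeadChip block the differences were −4.00 and −3.63, each called (limma adjusted p = 0.00351 and 0.00282). Gbp2, a guanylate-binding protein, fell by 1.35 ± 0.31 (limma adjusted p = 0.0362), a call lost in 8 of 10 fits without 1 mouse. The brightest probe of Irgm1 gave −0.62 (limma adjusted p = 0.0758) while a dimmer one gave −2.14 (limma adjusted p = 0.0062), so the probes of this gene differed.

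The factors that carry the interferon signal were lower as well. Stat2 was at 5.35, 5.62, 5.47, 5.63 and 5.47 in Old WT and at 7.37, 7.04, 7.08, 6.50 and 7.31 in Young WT. Irf9 was at 7.09, 7.02, 6.83, 6.89 and 6.71 in Old WT and at 8.16, 8.40, 8.37, 7.82 and 8.97 in Young WT. Neither gene overlapped between the ages, and both fell, with differences of −1.64 ± 0.30 for Stat2 and −1.61 ± 0.29 for Irf9 (limma adjusted p = 0.00608 and 0.00553). Irf7, which amplifies the type I response, was at 4.73, 5.60, 5.23, 5.29 and 5.36 in Old WT and at 7.45, 7.71, 6.66, 5.76 and 7.39 in Young WT. Old WT 3 and Young WT 4 were close, and it fell by 1.65 ± 0.37 (limma adjusted p = 0.0285). The call of Irf7 ended when any 1 of the 5 Old WT mice was left out, with a highest adjusted p of 0.205. With the BeadChip block Stat2 (−2.63) and Irf9 (−2.42) were still called (limma adjusted p = 0.0467 and 0.0157), and Irf7 (−2.57) was not (limma adjusted p = 0.175). Irf1, a target of interferon gamma, fell by 0.81 ± 0.19 (limma adjusted p = 0.0435), likewise lost in 8 of 10 such fits.

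**Figure D1:**
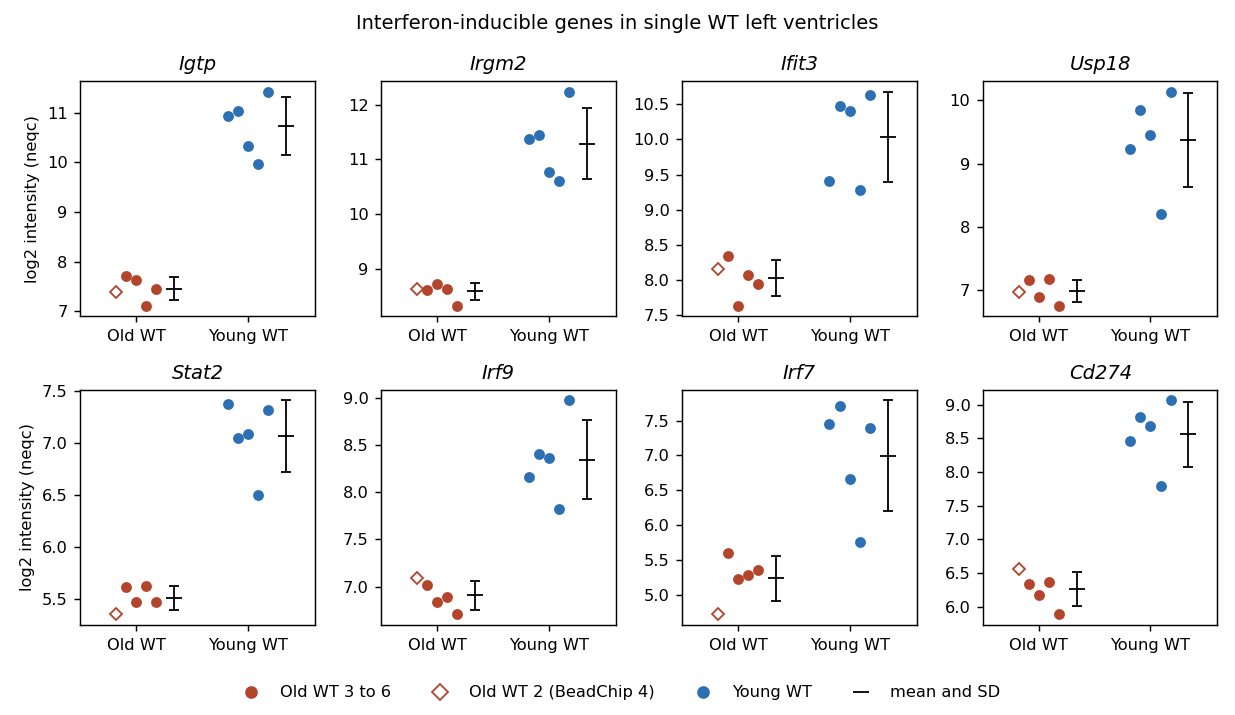
Log2 intensity of 8 interferon-inducible genes in each of the 5 Old WT (left) and 5 Young WT (right) left ventricles, with the mean and SD of each group beside the points. The open diamond is Old WT 2, the Old WT array on BeadChip 4. In all 8 genes every Old WT mouse lies below every Young WT mouse. That follows from their choice, since all are among the 12 largest falls taken from genes without overlap. Of the 36 measured interferon-stimulated genes, 27 had Old WT lower without overlap.

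Effector genes of the response followed the same direction. Ifit3, which restrains viral RNA, was at 8.15, 8.33, 7.63, 8.06 and 7.95 in Old WT and at 9.41, 10.47, 10.41, 9.28 and 10.63 in Young WT, with no overlap, and fell by 2.07 ± 0.38 (limma adjusted p = 0.00561). Usp18, which strips the ubiquitin-like protein ISG15 from its targets, was at 6.98, 7.16, 6.89, 7.17 and 6.76 in Old WT and at 9.23, 9.84, 9.45, 8.21 and 10.13 in Young WT. The Usp18 values did not overlap and the difference was −2.26 ± 0.44 (limma adjusted p = 0.0105), but the call ended without Old WT 2 (adjusted p = 0.0746). Dhx58, a sensor of viral RNA, was at 4.90, 5.33, 5.13, 5.31 and 5.08 in Old WT and at 6.35, 6.89, 6.50, 5.41 and 6.59 in Young WT. It fell by 1.55 ± 0.35 (limma adjusted p = 0.0320), lay near background in Old WT, where 3 of 5 arrays detected it, and lost its call in 6 of 10 fits that left out 1 mouse. Uba7, the enzyme that activates ISG15 and a gene outside the list, fell by 1.41 ± 0.25 (limma adjusted p = 0.00528). Eif2ak2 (the RNA-activated kinase PKR), Parp14 and Dtx3l fell as well, with differences of −1.33 ± 0.25, −1.41 ± 0.25 and −1.32 ± 0.21 (limma adjusted p = 0.00791, 0.00528 and 0.00134), and each kept its call without any 1 mouse. The BeadChip block ended the calls of Ifit3 (−2.62), Eif2ak2 (−1.75), Parp14 (−2.07; limma adjusted p = 0.0643 for all 3), Usp18 (−3.09, 0.150), Dhx58 (−2.06, 0.252) and Dtx3l (−0.90, 0.817), with the direction kept. The random block kept the calls of these genes, in the same order (limma adjusted p = 0.000596, 0.000354, 0.000806, 0.00349, 0.0328 and 0.00660). Isg15 itself had a mean of 6.20 in Old WT and 8.10 in Young WT, did not overlap, and missed the threshold with a difference of −1.69 ± 0.41 (limma adjusted p = 0.0532).

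Antigen presentation by class I molecules changed in a few members. Of 21 measured genes of a list for class I presentation and the immunoproteasome, 3 were called lower, as were 0.623% of all genes, and none higher. In this fit 19 differences were negative and the median was −0.66. Without surrogate variables 4 were called lower and 1 higher, 15 were negative and the median was −0.25. With only the 10 WT arrays and a random block none was called. The mean level of the list overlapped, at 7.79 to 8.04 in Old WT and 7.90 to 8.69 in Young WT. Nlrc5, the transactivator of class I genes, was at 4.54, 6.05, 5.88, 5.74 and 5.43 in Old WT and at 7.43, 7.09, 6.65, 5.84 and 7.96 in Young WT. Young WT 4 lay among the old mice, and the difference was −1.95 ± 0.30 (limma adjusted p = 0.00105). Tap2, a subunit of the transporter that loads peptides, was at 8.90, 8.72, 8.57, 8.47 and 8.46 in Old WT and at 9.57, 9.85, 9.67, 9.43 and 9.63 in Young WT, without overlap. It fell by 0.88 ± 0.16 (limma adjusted p = 0.00686), a call that ended without Old WT 2 (adjusted p = 0.0767). H2-Q5, a class I-b gene, was fitted at −1.19 ± 0.20 (limma adjusted p = 0.00293), but the mice overlapped and the plain difference of the group means was −0.57. With the BeadChip block Nlrc5 (−3.30) and H2-Q5 (−2.05) were still called and Tap2 (−0.78, limma adjusted p = 0.746) was not. For the 9 measured genes of the class II list none was called, and the median was −0.27.

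Outside both lists, several called genes are known for immune cells or interferon. Cd274 encodes PD-L1, the ligand that restrains T cells, and was at 6.56, 6.34, 6.18, 6.37 and 5.89 in Old WT and at 8.46, 8.81, 8.68, 7.78 and 9.06 in Young WT. The ages did not overlap, and it fell by 2.46 ± 0.31 (5.49-fold, limma adjusted p = 0.000111). Fcgr4, an activating Fc receptor of myeloid cells, was at 7.07, 5.78, 6.12, 5.75 and 5.98 in Old WT and at 7.55, 8.09, 8.31, 7.89 and 8.55 in Young WT. Old WT 2 was the old mouse nearest to the young ones, and the difference of −1.89 ± 0.44 (limma adjusted p = 0.0363) was lost in 6 of 10 fits without 1 mouse. Cd72, an inhibitory receptor known from B cells, Gvin1, a very large interferon-inducible GTPase, and Gzmm, the granzyme M of natural killer cells, fell too, with differences of −1.42 ± 0.24, −1.40 ± 0.31 and −0.74 ± 0.16 (limma adjusted p = 0.00283, 0.0280 and 0.0206). The calls of Gvin1 and Gzmm ended without some Old WT mice (4 and 5 of them), whereas that of Cd72 did not. Cd72 lay near background in Old WT, however, where 2 of 5 arrays detected it. Vmn1r65, annotated as a vomeronasal receptor gene, was at 5.16, 5.39, 5.51, 5.66 and 5.72 in Old WT and 9.10, 9.01, 7.76, 7.45 and 9.64 in Young WT. The gap was wide and the difference was −3.48 ± 0.34 (limma adjusted p = 3.23e-06), close to that of Igtp and read from a single probe whose name rests on the platform annotation alone. The BeadChip block kept the calls of Cd274 (−2.76), Cd72 (−2.32), Gvin1 (−2.64) and Vmn1r65 (−4.21) and ended those of Fcgr4 (−2.12, limma adjusted p = 0.511) and Gzmm (−0.86, 0.866).

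No measured gene of the marker lists of other cell types was called, though some lists were barely measured and the called Fcgr4, Cd72 and Gzmm, also known from immune cells, were not in them. Of 11 measured macrophage markers none was called, their median difference was −0.22, and their mean level ran from 7.67 to 8.03 in Old WT mice and from 7.88 to 8.44 in Young WT mice, with 11 of 11 detected in every mouse of both ages. C1qa, the complement subunit made by macrophages, had means of 6.74 in Old WT and 7.65 in Young WT, did not overlap, and had a difference of −0.94 ± 0.32 that missed the threshold (limma adjusted p = 0.183). Of 16 T cell markers 4 were measured, none was called, and their mean level was 6.76 to 7.05 in Old WT and 6.49 to 6.87 in Young WT. Of 3 measured neutrophil markers none was called, with 2 positive differences, 1 negative and a median of 0.40. Their mean level was 5.31 to 7.58 in Old WT and 4.95 to 5.73 in Young WT. Among them, S100a8 was at 5.92, 8.33, 8.94, 6.73 and 9.45 in Old WT and 6.23, 5.17, 5.43, 5.21 and 5.01 in Young WT. The mean of S100a8 was 2.47 higher in Old WT by the plain values but 0.45 ± 0.72 in the fit (limma adjusted p = 0.851), and Old WT 2 overlapped the young mice. The 2 measured erythroid markers averaged 8.01 to 10.6 in Old WT, with Old WT 2 the highest, and 7.69 to 8.93 in Young WT. Markers of B and plasma cells, immunoglobulin genes and adipocyte markers had no measured probe. The part of any of these cells in the fall of the interferon-inducible genes was not tested.

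The cardiac identity of the tissue was plain at both ages. Of 10 cardiomyocyte markers 9 were measured, all 9 detected in every Old WT and Young WT mouse, with a mean level of 12.5 to 12.7 in Old WT and 12.6 to 12.8 in Young WT and none called. Fibroblast markers (10 measured, 7.73 to 8.11 in Old WT and 7.35 to 7.75 in Young WT), endothelial markers (8 measured, 9.24 to 9.47 in Old WT and 8.92 to 9.29 in Young WT) and markers of smooth muscle and pericytes (8 measured, 7.53 to 7.75 in Old WT and 7.82 to 8.14 in Young WT) had no called member either. Hprt and Ldha, taken as reference genes, had differences of −0.21 ± 0.15 and −0.16 ± 0.15 (limma adjusted p = 0.615 and 0.719). The plain means of Hprt, 10.4 in Old WT and 10.0 in Young WT, ran the other way. So did a dimmer Hprt probe in the fit, at 0.42 ± 0.14 (limma adjusted p = 0.181).

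Genes that rose in the old WT heart were of mixed function. Klk1b26, a serine protease of the kallikrein family, was at 8.01, 7.18, 7.20, 7.14 and 7.41 in Old WT and 5.05, 5.21, 4.86, 5.54 and 5.0 in Young WT. No Young WT array detected it, so its level there is only a bound and it was at least 3.32-fold higher in Old WT (limma adjusted p = 0.000285). A bound of this kind sets the Old WT mean against the higher of the dim probe's signal and the lowest detected signal of each Young WT array. Both probes of the gene were called, the dimmer one at 1.84 (limma adjusted p = 0.0062). Sh3gl2, an endophilin of vesicle uptake, was at 8.08, 7.31, 7.37, 7.53 and 7.73 in Old WT and 5.62, 5.47, 6.11, 5.97 and 5.29 in Young WT. It did not overlap and rose by 2.24 ± 0.25 (4.74-fold, limma adjusted p = 1.87e-05). Cdh4, a cadherin of cell adhesion, was at 8.21, 8.19, 8.46, 8.19 and 7.92 in Old WT and 6.95, 7.28, 6.39, 5.39 and 6.24 in Young WT, and rose by 2.03 ± 0.33 (limma adjusted p = 0.0019). Its old mice lay within a narrow band above the widely spread young ones. All 3 calls were lost with the BeadChip block, where the differences were 2.55 for Klk1b26, 1.92 for Sh3gl2 and 1.48 for Cdh4 (limma adjusted p = 0.310, 0.103 and 0.722).

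Single metabolic genes were among those that rose. Cds1, which makes the CDP-diacylglycerol used for phosphatidylinositol and cardiolipin, was at 7.90, 7.56, 7.47, 7.68 and 7.66 in Old WT and 6.16, 5.24, 6.09, 6.12 and 6.46 in Young WT. Every old mouse lay above the young ones, and it rose by 1.90 ± 0.24 (limma adjusted p = 8.11e-05). Bdh1, the mitochondrial dehydrogenase of ketone body use, was at 11.12, 10.28, 10.53, 10.95 and 10.40 in Old WT and 8.63, 9.39, 9.92, 9.26 and 8.58 in Young WT. It did not overlap, rose by 1.48 ± 0.23 (limma adjusted p = 0.000991), and was also called in the fit with the BeadChip block (2.25, limma adjusted p = 0.0339). Bdh1 was the single called gene among 40 measured genes of fatty acid uptake and oxidation, whose median was 0.02. Cyp2b10, a cytochrome P450 of drug metabolism, was at 6.36, 6.28, 6.64, 6.53 and 6.51 in Old WT, was not detected in any Young WT mouse, and was at least 1.75-fold higher (limma adjusted p = 0.0127). Gsta1, a glutathione transferase, rose by 1.03 ± 0.23 (limma adjusted p = 0.0285) with overlapping mice, and Mthfd2, an enzyme of mitochondrial folate metabolism, by 1.18 ± 0.28 (limma adjusted p = 0.0396), also overlapping. The calls of Gsta1 and Mthfd2 ended in 6 and 8 of the 10 fits without 1 mouse. Bdh1 apart, the BeadChip block ended these calls, with differences of 1.49 for Cds1, 2.11 for Cyp2b10, 0.86 for Gsta1 and 0.35 for Mthfd2 (limma adjusted p = 0.281, 0.221, 0.891 and 0.965).

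Further risen genes had unlike roles. Dlgap1, a scaffold of the postsynaptic density, was at 6.02, 5.93, 6.00, 5.91 and 5.64 in Old WT and 4.70, 4.76, 4.51, 4.65 and 4.61 in Young WT. No Young WT array detected it, the ages did not overlap, and it was at least 1.18-fold higher (limma adjusted p = 0.000156). Tmprss13, a membrane-bound serine protease, was at 6.70, 6.37, 5.87, 5.49 and 5.96 in Old WT, was not detected in Young WT and was at least 1.34-fold higher (limma adjusted p = 0.0195). Its call ended without Old WT 2, 3 or 6, with a highest adjusted p of 0.128. Ric3, a chaperone of acetylcholine receptors, was at 6.74, 5.80, 5.72, 5.92 and 5.89 in Old WT and 4.73, 5.16, 4.83, 4.77 and 5.43 in Young WT. Old WT 2 stood above the other old mice, and the rise of 1.53 ± 0.31 (limma adjusted p = 0.0147) was lost without it (adjusted p = 0.239). Amy2a5, a pancreatic amylase with near-identical copies, rose by 1.14 ± 0.22 (limma adjusted p = 0.0108) and was lost without Old WT 2 as well (adjusted p = 0.0942). None of these 4 was called with the BeadChip block, at 1.26 for Dlgap1, 2.09 for Tmprss13, 0.82 for Ric3 and 0.41 for Amy2a5 (limma adjusted p = 0.529, 0.460, 0.883 and 0.940).

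Ion channels changed in both directions. Scn4b, the beta-4 subunit of voltage-gated sodium channels, was at 10.32, 8.90, 8.96, 8.90 and 9.40 in Old WT and 8.11, 7.84, 8.32, 8.23 and 8.10 in Young WT. Old WT 2 was the highest and all old mice lay above the young ones, with a rise of 1.66 ± 0.25 (3.16-fold, limma adjusted p = 0.000831), and a difference of 2.30 in the fit with the BeadChip block (limma adjusted p = 0.00911). Kcne1, the subunit that slows the potassium channel KCNQ1, was at 5.19, 6.65, 7.16, 6.63 and 6.68 in Old WT and 8.27, 7.95, 8.09, 8.38 and 8.04 in Young WT. It did not overlap and fell by 2.03 ± 0.41 (limma adjusted p = 0.0145), but Old WT 2 stood far below the other old mice and the call ended without it (adjusted p = 0.239). The level of Old WT 2 lay under the lowest detected signal of its array, 5.81. Kcnd2, a pore subunit of the transient outward current, was fitted at −0.85 ± 0.20 (limma adjusted p = 0.0378) although its mice overlapped, with means of 7.83 in Old WT and 8.05 in Young WT, and its call was lost in 5 of 10 fits without 1 mouse. Unlike that of Scn4b, the calls of Kcne1 (−1.46) and Kcnd2 (−1.71) ended with the BeadChip block (limma adjusted p = 0.719 and 0.670). Of 28 measured genes of calcium handling and ion channels these were the called ones, 1 higher and 2 lower, around a median of −0.17.

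Contractile and growth genes held few calls. Myom2, a protein of the sarcomere's M-band, was at 12.04, 12.60, 12.90, 12.62 and 12.44 in Old WT and 13.02, 13.58, 13.21, 13.35 and 13.19 in Young WT. The ages were apart by little, and it fell by 0.91 ± 0.18 (limma adjusted p = 0.0101), a call that ended without Old WT 2 (adjusted p = 0.205). Mylk3, the cardiac myosin light chain kinase, was fitted at −1.19 ± 0.20 (limma adjusted p = 0.00293) with overlapping mice. Its call also ended without Old WT 2 (adjusted p = 0.0728), and its other probes gave −0.72 and −0.77 and were not called. These were the 2 called genes of 23 measured sarcomere genes, whose median was 0.08. Igf2, the growth factor of fetal life, was at 8.20, 8.95, 8.68, 8.78 and 8.70 in Old WT and 10.42, 9.97, 9.83, 9.73 and 9.90 in Young WT, and fell by 1.16 ± 0.18 (2.23-fold, limma adjusted p = 0.0013). All old mice lay below the young ones, and without Old WT 2 the adjusted p was 0.0725. Igf2 was the 1 called gene of 31 measured insulin, growth factor and angiogenic signals, whose median was 0.10. S100a11, a calcium-binding protein and the 1 called gene among 16 measured ligands and partners of RAGE, rose by 0.89 ± 0.16 (limma adjusted p = 0.00561), but Old WT 2 at 9.53 lay within the Young WT range. The BeadChip block ended the calls of Myom2 (−0.87), Mylk3 (−1.17), Igf2 (−0.78) and S100a11 (0.40), with limma adjusted p = 0.672, 0.831, 0.722 and 0.926.

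**Figure D2:**
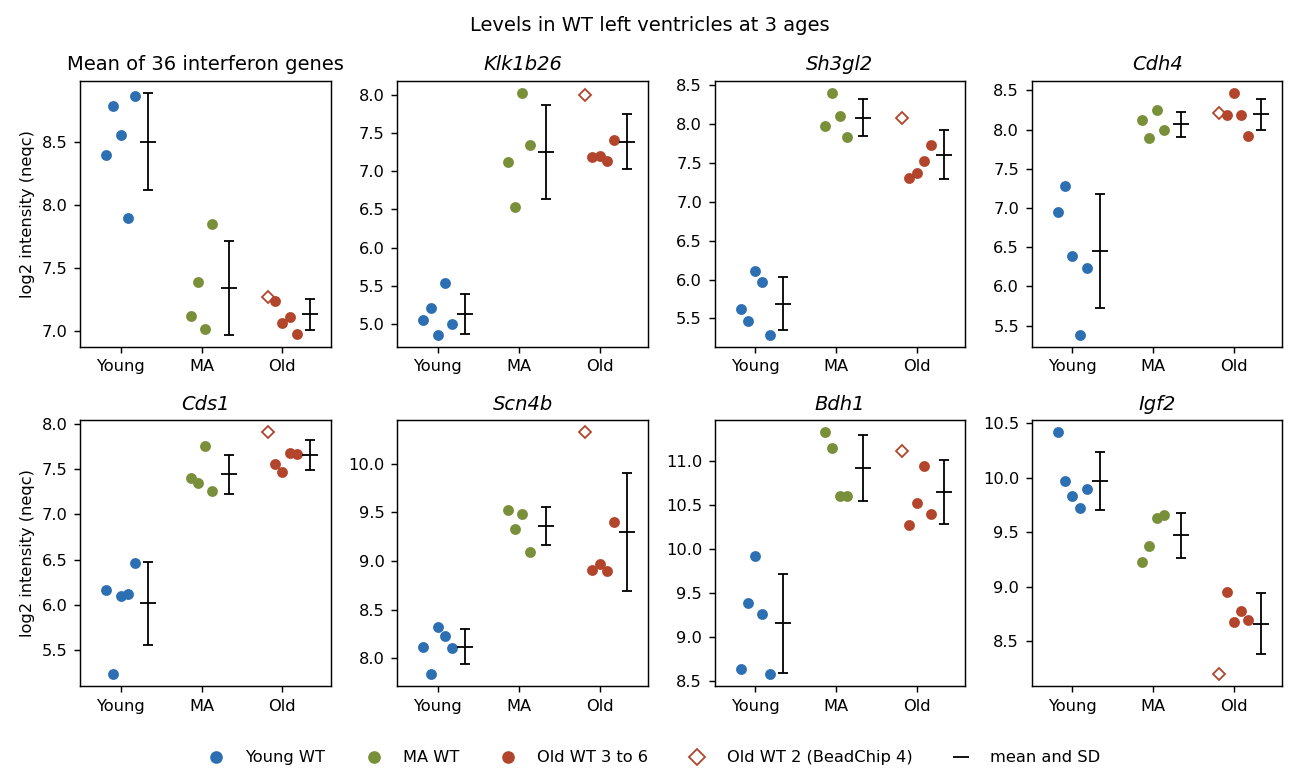
Log2 intensity in each WT left ventricle at 10 weeks (Young), 12 months (MA) and 21 months (Old) for the mean of 36 interferon-stimulated genes and 7 single genes, with the mean and SD of each age. The MA mean lies nearer to the Old than to the Young mean for the interferon genes, Klk1b26, Sh3gl2, Cdh4, Cds1, Scn4b and Bdh1, with MA WT 4 close to the lowest Young mouse for the interferon genes, and all MA mice lie between both ages for Igf2.

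The 4 MA WT mice lay together on BeadChip 2, and their levels are given with no test. The mean level of the interferon genes was 7.12, 7.39, 7.02 and 7.85 in MA WT 1 to 4, the last of them close to Young WT 4 at 7.90. Igtp was at 8.08, 9.12, 7.80 and 8.91 in MA WT, below every Young WT mouse. The MA WT mean lay nearer to that of Old WT than to that of Young WT for 16 of the 17 called interferon genes, for 38 of all 51 genes called lower and for 19 of the 31 called higher. Sh3gl2 was at 7.98, 8.39, 8.10 and 7.83 and Cdh4 at 8.12, 7.89, 8.25 and 8.0 in MA WT. Igf2 stood at 9.23, 9.38, 9.63 and 9.66, between Old WT and Young WT.

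For part of the interferon genes the age difference differed between genotypes. The WT difference minus the Rage-/- difference passed the test in 25 of 8189 genes (0.305%), of which 11 belonged to the 36 interferon genes, all more negative in WT, and the list median of Old minus Young Rage-/- was 0.01. The mean level of the 36 genes was 7.11 to 7.53 in Old Rage-/- mice and 7.08 to 7.48 in Young Rage-/- mice, both below the lowest Young WT mouse. For the called genes in Rage-/-, 19 of the 31 risen genes were also called higher with age, as were 2.15% of all genes, and 11 of the 51 fallen genes, none from the interferon list, were also called lower, as were 1.84% of all genes.

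**Figure D3:**
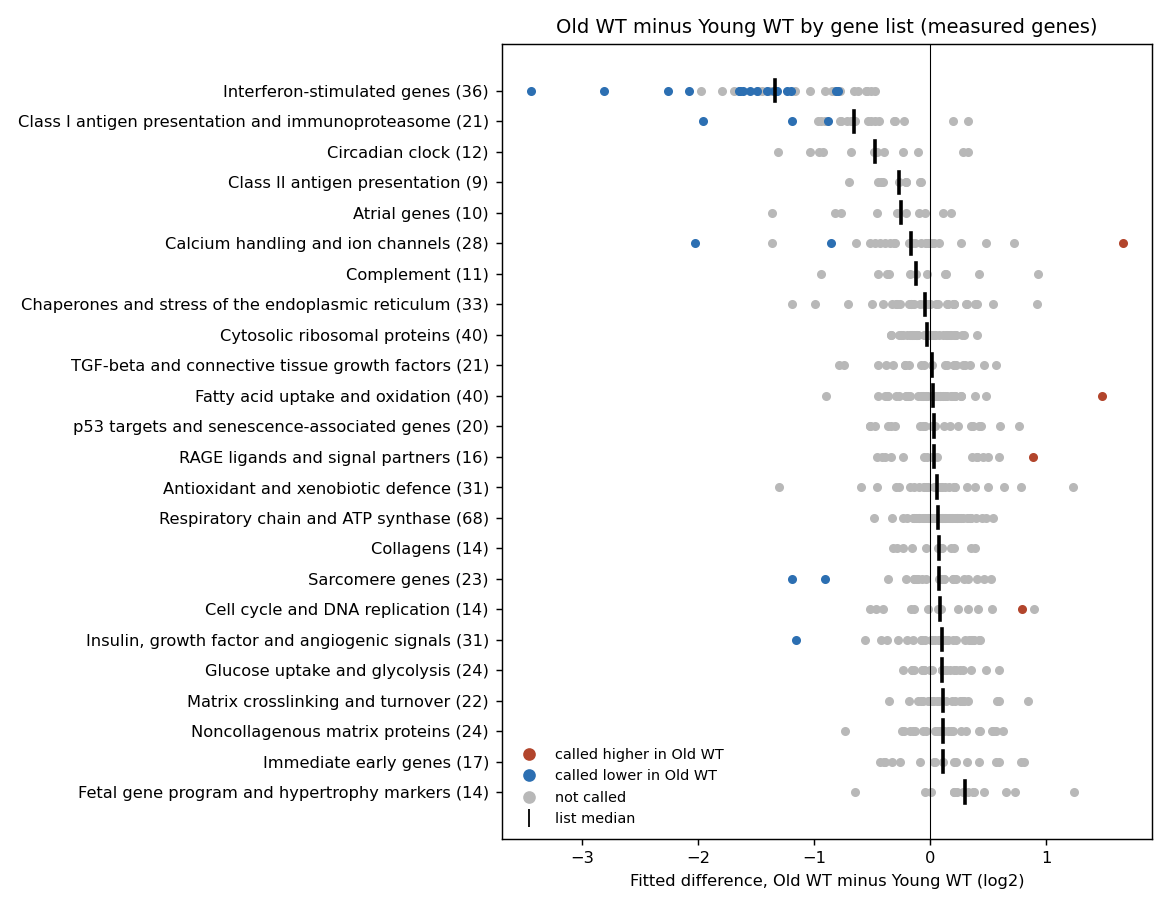
Fitted Old WT minus Young WT difference (log2) of every measured gene in 24 gene lists, with the number of measured genes after each name, the list median as a black bar and called genes in colour. The interferon list, with a median of −1.34, and the class I list, with −0.66, lie farthest to the left, and most other medians lie near 0.

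Other lists linked to cardiac aging held few called genes. Of 14 collagens, 22 genes of matrix crosslinking and turnover, 24 further matrix proteins and 21 TGF-beta and connective tissue growth factors none was called, with medians of 0.07, 0.11, 0.11 and 0.01. Mgp, a matrix protein that hinders calcification, was at 12.25, 12.33, 12.32, 12.54 and 12.63 in Old WT and 11.54, 11.51, 11.67, 11.72 and 11.96 in Young WT. Its mice did not overlap, but the difference of 0.53 ± 0.15 missed the threshold (limma adjusted p = 0.0851). Of 14 genes of the fetal program and hypertrophy none was called at a median of 0.30. Nppb, the natriuretic peptide released by stretched heart muscle, was at 12.85, 12.76, 13.02, 11.97 and 11.84 in Old WT and 11.67, 11.48, 11.02, 11.04 and 11.81 in Young WT, with a difference of 1.24 ± 0.37 (limma adjusted p = 0.113). The lowest old mouse was just above the highest young mouse. No member was called among 68 genes of the respiratory chain and ATP synthase (median 0.06), 24 of glucose use (0.10), 20 p53 targets and senescence-associated genes (0.03), 12 clock genes (−0.47), 17 immediate early genes (0.11), 33 chaperones (−0.04), 31 genes of antioxidant and xenobiotic defence (0.06), 40 ribosomal proteins (−0.03), 10 atrial genes (−0.25) or 11 complement genes (−0.12). The median of the atrial genes was 0.75 with BeadChip as a fixed block, so its sign was not stable. Among 14 cell cycle genes Ccnd1 was called (0.79 ± 0.19, limma adjusted p = 0.0430), with overlapping mice and a call lost in 7 of 10 fits without 1 mouse.

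For some genes the fit and the plain means stood far apart. Slc2a4, the insulin-regulated glucose transporter, was at 9.03, 10.50, 10.35, 10.31 and 10.26 in Old WT and 8.66, 8.20, 8.35, 8.68 and 8.92 in Young WT. The ages did not overlap, the plain difference was 1.53 and the fitted one 0.48 ± 0.13 (limma adjusted p = 0.0770). Old WT 2, on another BeadChip than the other old mice, lay close to the young ones. Rgs5, a pericyte marker, had means of 7.19 in Old WT and 9.30 in Young WT, a plain difference of −2.11 and a fitted one of −0.38 ± 0.23 (limma adjusted p = 0.545). Among the 82 called genes, 19 had fitted and plain differences more than 0.5 apart. One of these was Coa7, a factor for assembly of cytochrome c oxidase, with means of 6.04 in Old WT and 8.46 in Young WT and a fitted fall of 0.79 ± 0.16 (limma adjusted p = 0.0105), a call lost without Old WT 6 (adjusted p = 0.0641).

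**Figure D4:**
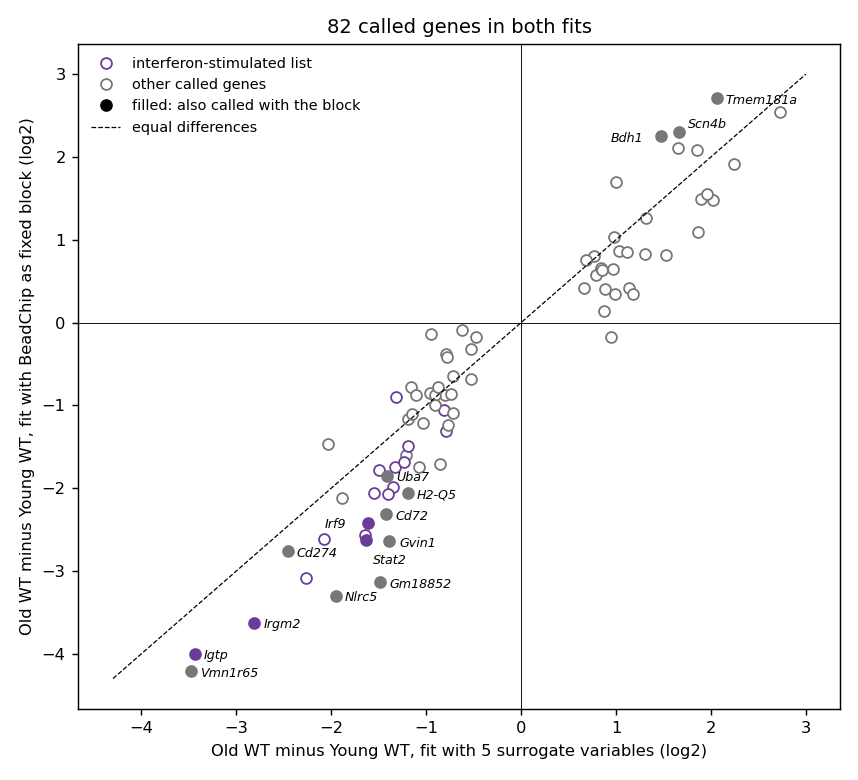
Old WT minus Young WT difference (log2) of the 82 called genes from both fits. The horizontal axis is the fit with 5 surrogate variables. The vertical axis is the fit with BeadChip as a fixed block and no surrogate variables. Genes of the interferon list are in purple. In all but 1 of the genes the sign is the same, and the 15 filled, named points are called in both fits.

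The calls differed in how much they rested on single mice. Left out one at a time, Old WT 2, 3, 4, 5 and 6 left 53, 64, 71, 68 and 61 called probes, and without Young WT 5 there were 405. All 82 genes kept their sign in each of these 10 fits, and 27 of them kept their call in all 10, 12 of the 31 higher and 15 of the 51 lower. The 15 lower ones were Vmn1r65, Igtp, Irgm2, Cd274, Ifit3, Nlrc5, Stat2, Irf9, Cd72, Uba7, Parp14, Eif2ak2, Dtx3l, H2-Q5 and Ogfr. The 12 higher ones were Klk1b26, Sh3gl2, Tmem181a, Cdh4, Cds1, Scn4b, Cyp2b10, Bdh1, Dlgap1, Skap2, S100a11 and Pisd-ps3. Each of these 10 fits held 5 surrogate variables. Pisd-ps3, whose mice overlapped, was fitted at 1.96 ± 0.26, against a plain difference of 0.72. Without surrogate variables it was not called (limma adjusted p = 0.144), nor with the random or fixed block (0.196 and 0.722). For the interferon list, 9 to 25 of the 36 genes were called lower when 1 mouse was left out (25 without Young WT 4 and 9 without Old WT 3 or Old WT 6), and the direction held in all 36. Skap2, an adaptor protein of immune cell adhesion, rose by 1.30 ± 0.19, and Tmem181a by 2.06 ± 0.26 (limma adjusted p = 0.000573 and 8.56e-05), and only Tmem181a of this pair was also called with the BeadChip block. Klk1b26, Cyp2b10, Gvin1, H2-Q5 and Tmem181a belong to families with near-identical copies, whose RNA their probes may also bind.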

How the data were processed

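Gene expression in the LV of 29 female mice was measured on MouseWG-6 v2.0 BeadChips of Illumina, 1 array per mouse. The authors exported bead intensities and detection scores with GenomeStudio 2011.1 and deposited them as unnormalized intensity values, with a detection fraction per probe that holds 1 minus the detection p. The authors' deposited log2 values were variance-stabilized and robust-spline normalized with lumi in R 4.0.2, and served as an alternative. The number of arrays limits the precision.

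Here the intensities were corrected and quantile-normalized in R 4.3.3 with limma 3.58.1 (neqc, offset 16). Probes detected at p under 0.01 in at least 25% of arrays (8 of 29) were kept, 13277 in all and the same as those of the authors' matrix. Probe names came from the platform annotation, updated through RefSeq. limma was fitted to the 6 groups with the first 5 of 7 surrogate variables, estimated in 5 rounds, and Benjamini-Hochberg adjustment was applied over all probes. A gene was read by its brightest probe. The step was tested on simulated data for Old WT minus Young WT over 13277 probes, where it called 97 of 100 changes of size 1 and 100 of 100 of size 2 (log2), with 12 false calls. The shared variation in these data came from the arrays after the group means were removed, so it held no BeadChip difference that runs with age. The simulation therefore cannot show how the step fares with such a difference.

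Genes were named by rule: the 12 largest called rises and 12 largest called falls without overlap, leading members of each list, the brightest markers of each cell type and reference genes. Genes named beyond it were chosen after their values were seen. The members and lists were chosen with earlier results of these data known. Alternatives were other normalizations, surrogate variable numbers, filters, BeadChip and replicate blocks, array weights and leaving out each mouse. Replicate numbers named different mice and paired nothing.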

Additional observations from a re-analysis of the deposited data

Results flagged for a closer look

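Old WT 2, the Old WT array on BeadChip 4, stood apart from the other Old WT arrays by its signal over background of 5.75. It was also far from the other Old WT mice, by the gap to its neighbour over the range of the group, in the log2 level of 14 named genes. It was the high one for Ric3 (6.74), Fcgr4 (7.07), Ccnd1 (11.30), Col18a1 (8.44), Asns (7.68) and Rpl23 (14.17), and the low one for Kcne1 (5.19), S100a11 (9.53), Slc2a4 (9.03), Ltbp1 (5.23), Stard10 (7.72), Cox6a1 (10.56), Atp5l (13.32) and Txn1 (4.66). Old WT 5 stood apart for Dkk3 (8.21) and Young WT 5 for Rpl39 (11.54). These were 16 of 130 groups of values examined, where chance marks about 1 in 20, and the part of the BeadChip in them was not tested.

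The age difference in WT minus that in Rage-/- passed the test of the difference for 13 named genes. It was positive for Tmem181a, at 1.45 (limma adjusted p = 0.0269). It was negative for Vmn1r65 (−3.10), Igtp (−3.52), Irgm2 (−2.75), Cd274 (−1.94), Usp18 (−2.36), Ifit3 (−2.27), Fcgr4 (−2.30), Irf7 (−2.49), Stat2 (−1.85), Irf9 (−1.51), Nlrc5 (−2.22) and H2-Q5 (−1.41), with limma adjusted p between 0.000174 and 0.0499.

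Of the probes outside the tested set, 11 were detected on all 5 Old WT arrays and on no Young WT array, and 3 the other way round. Old WT arrays detected 10903 to 15087 probes and Young WT arrays 10302 to 13676. The part of this in both counts was not tested.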

How the results depend on the processing

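All 82 called genes (63 of them tested with detection in 75% of arrays) kept their sign in each alternative except the fit with BeadChip as a fixed block, where Pnisr, at 0.94 in the fit above, was at −0.18. The number of called probes was 114 (46 higher, 68 lower) and moved to 352 (146 and 206) with the authors' normalized values, 261 (119 and 142) with log2 intensities and quantile scaling, 182 (77 and 105) with an offset of 50, 3169 (1493 and 1676) without surrogate variables, 180 (114 lower) with 3 of them, 4272 (2209 and 2063) with only the 10 WT arrays and no surrogate variables, 21 (5 and 16) with BeadChip as a fixed block, 13 (4 and 9) without BeadChips 5 and 6, and 236 (93 and 143) with detection in 75% of arrays. The fits with a BeadChip block or without BeadChips 5 and 6 held no surrogate variables either. The cause of these moves was not tested. Leaving out 1 mouse at a time gave 53 to 405 called probes, 23 to 152 higher and 30 to 253 lower. The 30 probes whose age difference differed between genotypes became 67 with the authors' values, 17 without surrogate variables and 11 with BeadChip as a fixed block. With the replicate number as a block, 72 probes were called (41 lower), but same-numbered mice were different animals, and their deviations correlated at 0.34, −0.13, −0.02 and 0.32 for the numbers 2 to 5. Over the named called genes and their alternatives, 710 values kept the call and its direction, 138 lost the call and none reversed. The interferon list median stayed between −2.02 and −0.56. An exact two-sided permutation test of the 10 WT levels gave p = 0.0635 for H2-Q5, 0.111 for Mylk3, 0.357 for Kcnd2 and 0.516 for Ccnd1, and under 0.05 for the other 29 named called genes (smallest possible 0.00794). The 12 largest rises and 12 largest falls were chosen without overlap, which fixes this p at its smallest value. Their exact p is therefore no check on their calls. The tested probes lie above background on at least 8 arrays, and dimmer transcripts were not tested.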

Other observations

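In 13 genes a dimmer probe was called while the brightest was not. Nmrk2, a nicotinamide riboside kinase, gave 1.62 from its dimmer probe and −0.27 from its brightest one, and Ankrd1, a stress-responsive protein of the sarcomere, gave 0.98 and 0.33. Gbp3, a guanylate-binding protein, gave −1.80 from a dimmer probe, and Ifit2, an antiviral protein, −1.24. Their brightest probes gave similar differences, −1.80 and −1.17, that missed the threshold (limma adjusted p = 0.0694 and 0.0801). Which probe reads the transcript better was not tested.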
